A study of Rattus norvegicus with 6 samples.

Results

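The genes described here encode the extracellular gels and crystals that lie over the vestibular hair cells (HCs), namely Otog, Otogl, Otoa, Tecta, Tectb, Oc90, Otol1, Ceacam16 and Sparcl1. They were taken by symbol from a table of 32883 rat genes, where each of the 9 had a single row, and all 9 passed the filter on low counts and were tested. Counts came from RNA-seq of the vestibular epithelium of 6 adult male Long-Evans rats. The 3 rats of the IDPN-4wk group had 20 mM 3,3'-iminodipropionitrile (IDPN), a nitrile toxic to HCs, in their water for 4 weeks, and the 3 rats of the Control group drank plain water. Each library held the 2 utricles and 6 cristae of a single animal, so otolithic membrane (utricle) and cupula (crista) transcripts were measured together. The libraries held from 13358700 to 18562000 counts. The animal codes of the IDPN-4wk rats share a prefix that no Control code has, so whatever it marks cannot be told apart from the treatment.

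In the utricle, head tilt and linear acceleration are sensed through the otolithic membrane, a gel weighted with calcium carbonate crystals called otoconia. In the cristae, rotation is sensed through the cupula, a gel without crystals. The gels are built of large secreted glycoproteins such as the otogelins and tectorins, made mostly by supporting cells, the non-sensory cells that surround HCs. Loss of several of these proteins in mice causes balance or hearing deficits. Otoconia form before and around birth on an organic matrix in which otoconin 90 (Oc90) is the main protein, and they are little renewed in the adult.

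Of the 9 genes, 5 were downregulated and 1 was upregulated in IDPN-4wk. Genes were called at an adjusted p (Padj) under 0.05 in the quasi-likelihood test of edgeR, corrected over 14352 genes, and a fold change over 1.5. The 6 called genes of 9 compare with 9.71% called among all genes tested, 6.62% lower and 3.09% higher. With library size alone in scaling, 780 genes were called lower and 762 higher, against 950 and 444 with TMM. By adjusted p alone the same 6 genes passed, against 19.4% of all genes. With glmTreat, a test in edgeR against the 1.5-fold threshold itself, 3 of the 9 genes were called (Otog and Otoa lower, Oc90 higher), and Otogl (adjusted p 0.0603), Tectb (0.0636) and Sparcl1 (1) were not, while over all genes the calls went from 1394 to 354 lower and 99 higher. Otog, Otoa, Otogl and Tectb fell to between 51.1% and 54.4% of Control and Sparcl1 to 66.5%, whereas Oc90 rose to 237%. Tecta, Otol1 and Ceacam16 were not past the thresholds. The median log2-Fold change of the 9 genes was -0.59, against 0.02 over all genes tested. The summed level of the 9 genes was 12331 ± 874 CPM (counts relative to the library total after TMM scaling) in the Control group and 6845 ± 894 CPM in IDPN-4wk (SD over 3 libraries each), or 55.5% of Control. Since this is bulk tissue, fewer cells of a type and less RNA per cell cannot be told apart.

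**Figure D1:**
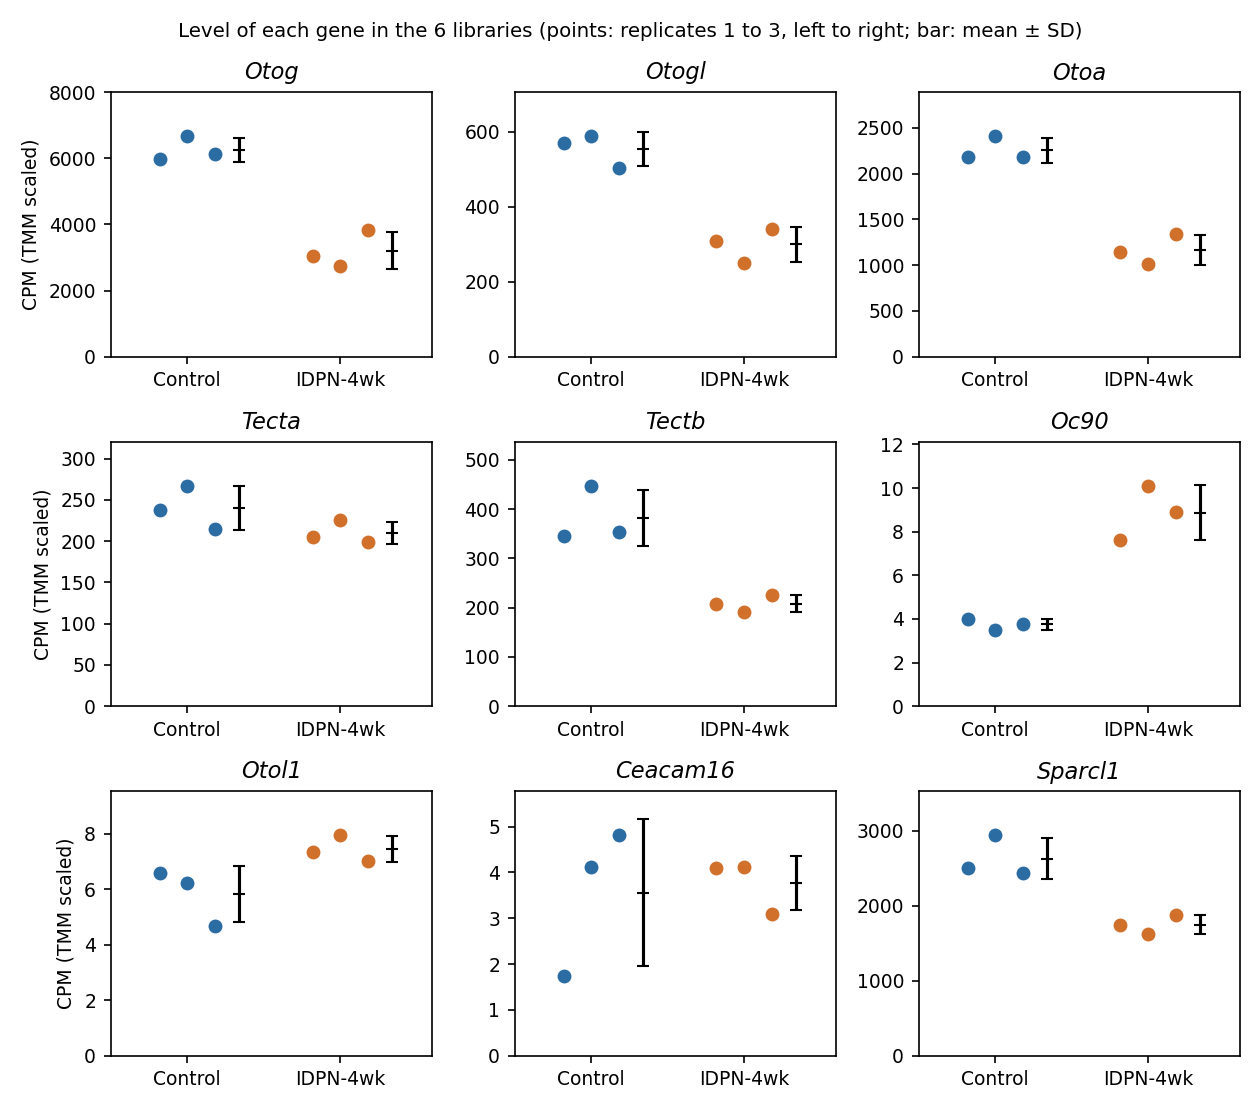
Level of each of the 9 genes (y axis, CPM after TMM scaling, starting at 0) in the 3 Control (blue) and 3 IDPN-4wk (orange) libraries, with the mean and SD as a bar. The groups are apart for Otog, Otogl, Otoa, Tectb, Sparcl1, Oc90 and, narrowly, Otol1, and overlap for Tecta and Ceacam16.

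The upstream sequences of Otog, Otoa, Otogl and Tectb are shown because these 4 genes fell by a similar factor. They are the 250 bases before the start of each gene in the RefSeq annotation of GRCr8, 5′ to 3′ on the strand of the gene. The counts were made on another build, Rnor6.0. Capitals mark letters that match one of 6 short motifs, searched on both strands. These were the TATA box as TATAAA, the GC box as GGGCGG, the CCAAT box by its name, an E-box as CAGCTG, and SOX factor cores as ACAAAG or else as ACAATG. The windows are chr1:105882497-105882746 on the plus strand for Otog, chr1:185074021-185074270 on the plus strand for Otoa, chr7:45097870-45098119 on the minus strand for Otogl and chr1:264226713-264226962 on the plus strand for Tectb.
Otog: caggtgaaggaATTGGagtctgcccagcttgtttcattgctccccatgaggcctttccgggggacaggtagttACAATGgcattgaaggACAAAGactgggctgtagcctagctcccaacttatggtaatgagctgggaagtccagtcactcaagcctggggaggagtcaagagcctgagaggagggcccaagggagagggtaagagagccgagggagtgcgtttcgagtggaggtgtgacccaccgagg
Otoa: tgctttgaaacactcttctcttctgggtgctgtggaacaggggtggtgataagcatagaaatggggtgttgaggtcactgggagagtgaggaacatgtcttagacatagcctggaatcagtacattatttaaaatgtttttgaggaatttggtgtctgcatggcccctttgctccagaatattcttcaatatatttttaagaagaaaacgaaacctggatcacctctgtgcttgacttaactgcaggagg
Otogl: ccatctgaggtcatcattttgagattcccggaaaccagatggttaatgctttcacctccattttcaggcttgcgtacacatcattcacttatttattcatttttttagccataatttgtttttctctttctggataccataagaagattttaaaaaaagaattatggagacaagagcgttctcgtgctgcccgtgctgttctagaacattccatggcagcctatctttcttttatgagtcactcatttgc
Tectb: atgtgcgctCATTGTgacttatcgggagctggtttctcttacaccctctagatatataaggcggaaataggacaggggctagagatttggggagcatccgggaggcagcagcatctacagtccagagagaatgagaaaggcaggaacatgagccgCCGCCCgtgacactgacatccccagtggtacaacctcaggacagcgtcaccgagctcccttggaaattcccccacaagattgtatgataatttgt

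Otog held ACAAAG from base -161 to -156 and ACAATG from base -177 to -172 relative to the start, and CCAAT on the opposite strand from -239 to -235. Tectb held ACAATG from -241 to -236 and GGGCGG from -95 to -90, both on the opposite strand. None of the 6 motifs was found in the windows of Otoa and Otogl. Among 33469 rat promoter windows of this length, ACAAAG was found in 16.3%, ACAATG in 11.1%, CCAAT in 34% and GGGCGG in 30.5%, while TATAAA was found in 12.9% and CAGCTG in 12%. The 4 windows thus had no motif of this set in common. Sequences were at hand for 7 of the 9 genes, and Tecta and Oc90 had no entry.

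The otogelins, which form the fibrous scaffold of the gels, were compared next. Otog (ENSRNOG00000010983), encoding otogelin, was at 5984, 6673 and 6129 CPM in Control and, after IDPN, at 3032.5, 2740 and 3825 CPM. The highest treated library was thus well below the lowest Control library. The mean went from 6262 ± 363 to 3199 ± 561 CPM (mean ± SD, n = 3 each), a log2-Fold change of -0.97 ± 0.11 SE (Padj 2.47e-04 by edgeR). Its paralog Otogl (ENSRNOG00000030316), encoding otogelin-like, was at 570, 588 and 503 CPM in Control and, after IDPN, at 308, 250 and 340 CPM. The change was -0.89 ± 0.11 SE on the log2 scale (Padj 3.50e-04 by edgeR), and the groups again did not overlap. Groups that do not overlap were found for 37.8% of all genes tested. Within a library, Otog had from 10.5 to 12.2 counts per Otogl count in Control and from 9.85 to 11.3 in IDPN-4wk. The groups overlapped, with the ratio at 94.3% of Control (two-sided exact permutation p = 0.4, adjusted p = 0.48 over 6 ratios). The smallest p that 3 against 3 libraries can give is 0.1, so these ratios cannot show that both genes changed equally.

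Otoa (ENSRNOG00000017487) encodes otoancorin, which anchors the gels to the apical surface of supporting cells. It was at 2176, 2409 and 2179 CPM in Control and, after IDPN, at 1144, 1007 and 1338 CPM. The decrease, to 51.6% of Control, was close to that of Otog (log2-Fold change -0.96 ± 0.10 SE, Padj 1.46e-04 by edgeR). Both genes also moved together from animal to animal, with 2.75, 2.77 and 2.81 Otog counts per Otoa count in Control and 2.65, 2.72 and 2.86 in IDPN-4wk libraries. The ratio in IDPN-4wk was 98.7% of Control (two-sided exact permutation p = 0.6, adjusted p = 0.60 over 6 ratios). The log2 ratio differed between the groups by -0.02, with an SD between animals of 0.02 in Control and 0.06 in IDPN-4wk.

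The tectorins, filament proteins with a zona pellucida domain that are found in the otolithic membrane and in the tectorial membrane of the cochlea, did not move together. Tectb (ENSRNOG00000015671), encoding beta-tectorin, was at 346, 448 and 353 CPM in Control and, after IDPN, at 207, 191 and 226 CPM. It fell to 54.4% of Control (log2-Fold change -0.88 ± 0.11 SE, Padj 3.32e-04 by edgeR). Tecta (ENSRNOG00000031126), encoding alpha-tectorin, was at 238, 267 and 214 CPM in Control and, after IDPN, at 205, 225 and 199 CPM. The Tecta groups overlapped, and its log2-Fold change of -0.19 was not past the threshold (95% interval from -0.39 to 0.01, edgeR Padj 0.165). The interval for Tectb, from -1.11 to -0.64, lay entirely below that of Tecta.

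The ratio of both tectorins within a library does not depend on the scaling between libraries. There were 0.689, 0.597 and 0.608 Tecta counts per Tectb count in Control and 0.987, 1.18 and 0.880 in IDPN-4wk libraries. The ratio was at 160.3% of Control in IDPN-4wk, and higher in all 3 treated animals than in any Control animal. The two-sided exact permutation p was 0.1, the smallest this design allows, and 0.15 adjusted over 6 ratios. Otog per Tecta count went in the opposite direction, from between 25.0 and 28.6 in Control to between 12.2 and 19.2 in IDPN-4wk (57.8% of Control, exact permutation p = 0.1, adjusted p = 0.15 over 6 ratios). The pairs of genes were picked with their values known. That 4 of the 6 ratios did not overlap between the groups is therefore only a description, and no share over other pairs was computed.

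**Figure D2:**
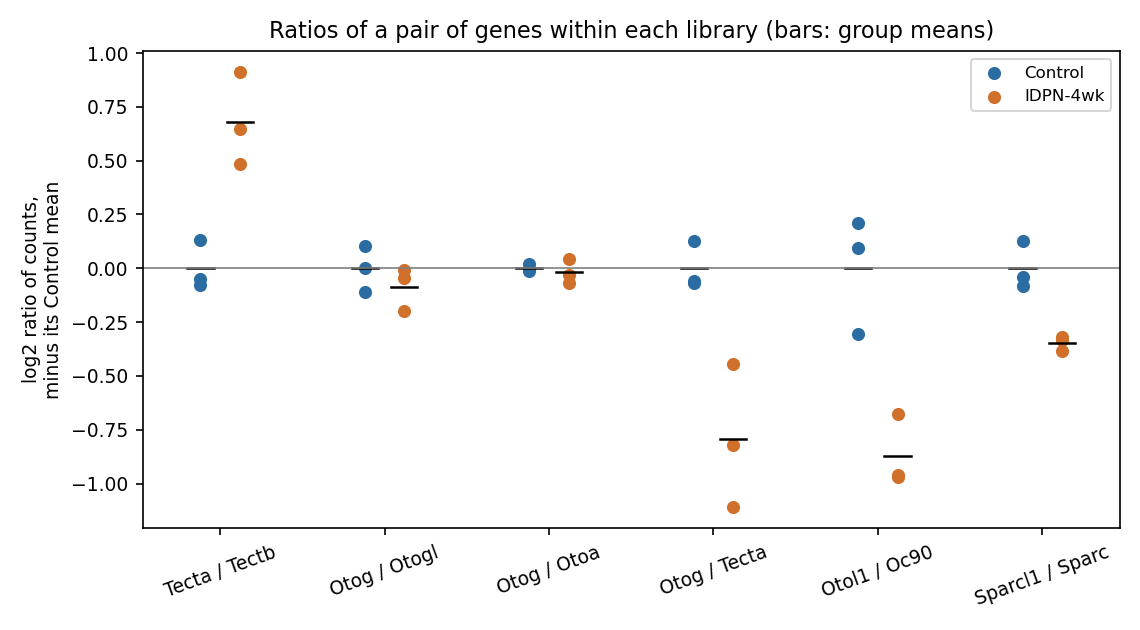
Log2 ratio of the counts of a pair of genes within each library (y axis), with the Control mean of each ratio set to 0, in Control (blue) and IDPN-4wk (orange) libraries, and bars at the group means. Otog per Otogl and Otog per Otoa overlap between the groups, Tecta per Tectb lies higher in all IDPN-4wk libraries, and Otog per Tecta, Otol1 per Oc90 and Sparcl1 per Sparc lie lower.

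Ceacam16 (ENSRNOG00000031391) encodes a secreted adhesion-family protein that binds alpha-tectorin in the tectorial membrane of the cochlea. It was barely detected, with 27, 59 and 68 counts in Control and 57, 80 and 48 counts in IDPN-4wk libraries. The levels were 1.74, 4.12 and 4.81 CPM in Control against 4.10, 4.13 and 3.09 CPM after IDPN. Control replicate 1 was the lowest of the 6, and the groups overlapped. The log2-Fold change was 0.09 with a 95% interval from -0.69 to 0.87 (edgeR Padj 0.889), which holds changes of 1.5-fold in both directions. Its sign rested on Control replicate 1, without which the log2-Fold change was -0.24 (edgeR Padj 0.617).

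Among the otoconial genes, Oc90 (ENSRNOG00000025516) moved in the opposite direction to Otog, Otogl, Otoa and Tectb. It had 62, 50 and 53 counts in Control and 106, 196 and 138 counts in IDPN-4wk libraries, which is 4.00, 3.49 and 3.75 CPM against 7.62, 10.1 and 8.88 CPM. Every treated animal was above every Control animal. The mean rose from 3.75 ± 0.254 to 8.87 ± 1.24 CPM (SD, n = 3 each), a 2.37-fold difference (log2-Fold change 1.24 ± 0.20 SE, Padj 0.00191 by edgeR). Even after this rise the level in CPM was low. Levels of different genes are not ranked here, because transcript lengths were not used.

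Otol1 (ENSRNOG00000021186) encodes otolin-1, a short-chain collagen-like protein that binds otoconin 90 in the otoconial matrix. Counts were 102, 89 and 66 in Control and 102, 154 and 109 in IDPN-4wk libraries. The levels of 6.59, 6.22 and 4.67 CPM in Control were all below the 7.33, 7.94 and 7.02 CPM of IDPN-4wk libraries, by a narrow margin. The log2-Fold change of 0.35 (95% interval from -0.09 to 0.80, edgeR Padj 0.258) was not past the threshold. There were from 1.25 to 1.78 Otol1 counts per Oc90 count in Control and from 0.786 to 0.962 in IDPN-4wk libraries. The ratio was lower in every treated animal than in any Control animal (54.7% of Control, two-sided exact permutation p = 0.1, adjusted p = 0.15 over 6 ratios). That p is the smallest the design allows, and the pair was picked with its values known.

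Sparcl1 (ENSRNOG00000015093), a calcium-binding matrix protein of the SPARC family, is found in otoconia and is also made by glia and vessels. It was at 2505, 2941 and 2429 CPM in Control and, after IDPN, at 1747, 1621 and 1870 CPM. The groups did not overlap, with a change of -0.59 ± 0.09 SE on the log2 scale (Padj 0.00128 by edgeR). This lies at the fold change threshold, which is -0.58 on the log2 scale. Sparcl1 did not reach it when only library size was used for scaling (-0.48), with upper quartile scaling (-0.56), and when replicate 2 of either group was left out (Control -0.50, IDPN-4wk -0.54), with edgeR Padj at most 0.00585 in these fits. Sparc, its relative and another otoconial matrix gene, was at -0.24 on the log2 scale (Padj 0.0461 by edgeR). There were from 2.01 to 2.33 Sparcl1 counts per Sparc count in Control and from 1.63 to 1.71 in IDPN-4wk libraries (exact permutation p = 0.1, adjusted p = 0.15 over 6 ratios).

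**Figure D3:**
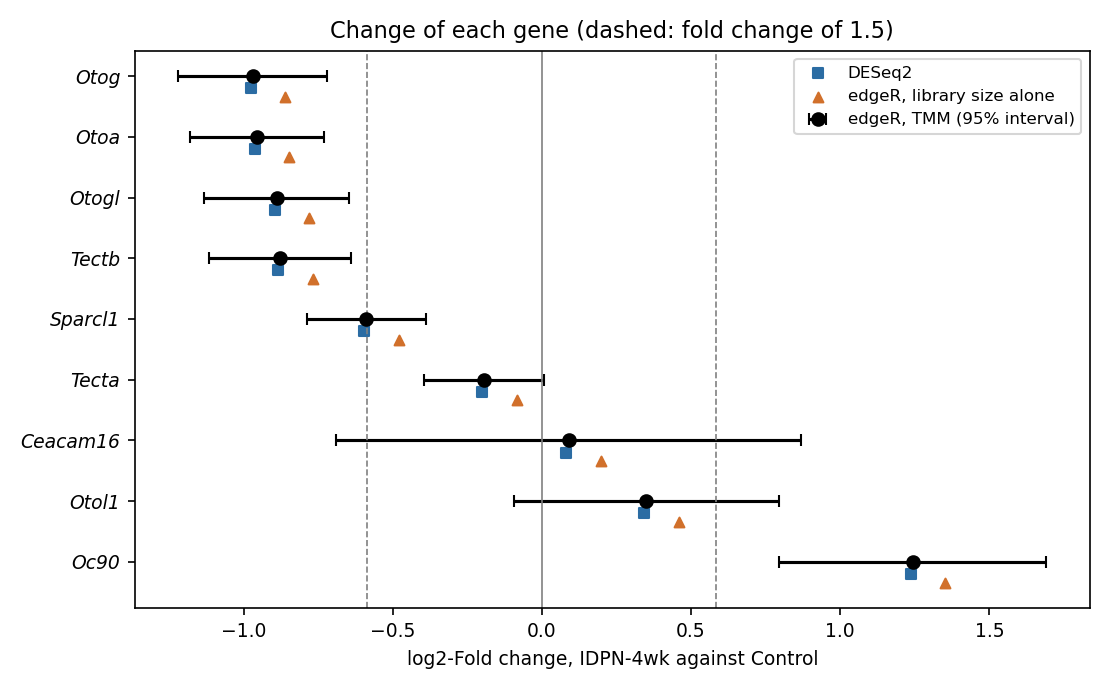
Log2-Fold change of IDPN-4wk against Control for each gene (x axis), with the 95% interval of edgeR with TMM (black) and the values of DESeq2 (blue squares) and of library size alone (orange triangles), and dashed lines at a fold change of 1.5. The intervals of Otog, Otoa, Otogl and Tectb lie below the lower dashed line, that of Oc90 lies above the upper one, and Sparcl1 sits on the lower line.

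The treated libraries differed in level. In the 5 downregulated genes, IDPN-4wk replicate 2 had the lowest and replicate 3 the highest level of the treated libraries. Otog was at 43.8% of the Control mean in replicate 2, at 48.4% in replicate 1 and at 61.1% in replicate 3. For Otoa the same libraries were at 44.7%, 50.8% and 59.3%, and for Otogl at 45.1%, 55.6% and 61.4%. The spread was smaller in Tectb, from 49.9% to 59.2%, and in Sparcl1, from 61.8% to 71.2%. Oc90 was highest in replicate 2, at 270% of the Control mean, with replicate 3 at 237% and replicate 1 at 203%. Replicate 2 was also the deepest library. Without it, the log2-Fold changes were -0.87 for Otog, -0.86 for Otoa, -0.78 for Otogl, -0.82 for Tectb and 1.13 for Oc90, all still past both thresholds, whereas Sparcl1 at -0.54 was no longer called.

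**Figure D4:**
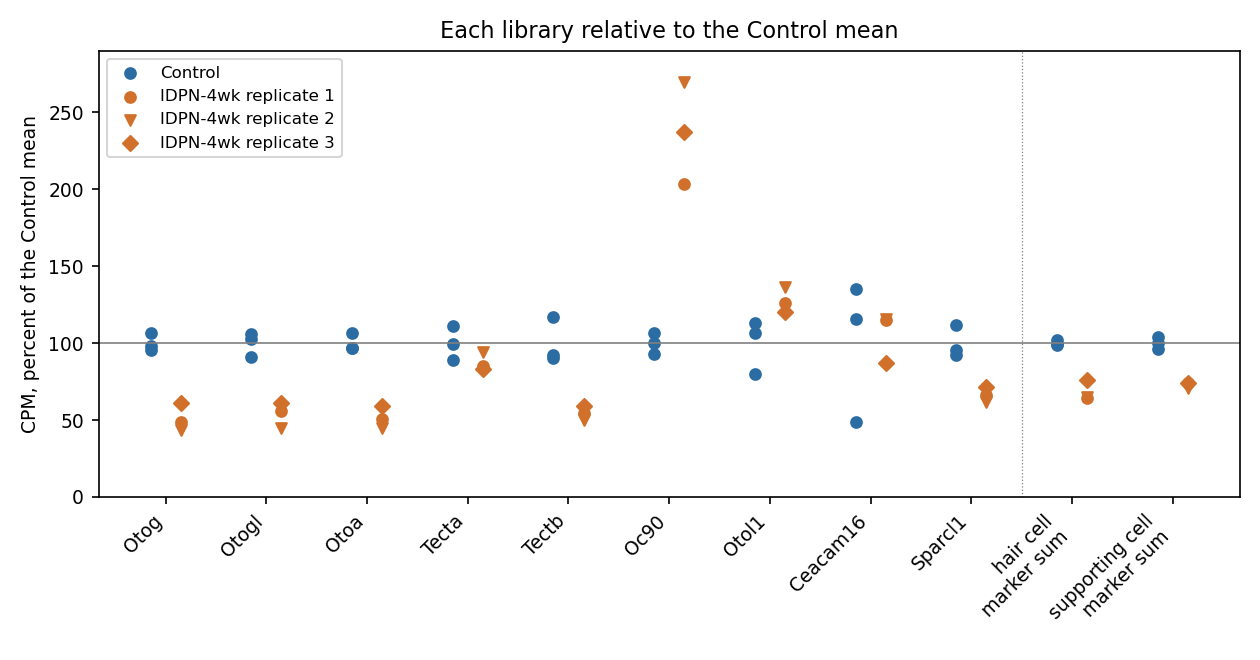
CPM of each library as a percent of the Control mean (y axis) for the 9 genes and for the summed hair cell and supporting cell markers, with Control libraries in blue and the 3 IDPN-4wk libraries as different orange symbols. Otog, Otogl, Otoa and Tectb lie between 43.8% and 61.4% in IDPN-4wk, below both marker sums (64.1% to 76.1% for HCs and 70.6% to 74.0% for supporting cells), although without Ush1c the HC sum lies from 50.9% to 66.0% and overlaps them, and Oc90 lies above 200%.

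Other genes of otoconia formation and of the otoconial matrix were measured beside the 9 genes. Of 10 such genes, 8 were tested and 4 of these were downregulated, against 6.62% of all genes. The median of the 8 was -0.67 on the log2 scale. Nox3, the NADPH oxidase without which otoconia do not form, fell from 134 to 62.6 CPM (log2-Fold change -1.10 ± 0.09 SE, Padj 3.72e-05 by edgeR). Otop1, a proton channel also required for otoconia, fell from 34.4 to 16.1 CPM (log2-Fold change -1.10 ± 0.21 SE, Padj 0.00458 by edgeR). The other 2 called genes are also expressed in HCs: Atp2b2, the calcium pump of the hair bundle (log2-Fold change -1.87), and Spp1, the gene of osteopontin (-1.83). Cyba, the partner subunit of Nox3, and Slc26a4, the anion exchanger pendrin, had log2-Fold changes of 0.01 each, with 95% intervals from -0.20 to 0.22 and from -0.23 to 0.25. Dmp1 was at 0.17 (edgeR Padj 0.686). Noxo1, the organizer of Nox3, had from 4 to 17 counts and was removed by the filter, and Foxi1 had 0 counts in every library.

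Of 11 accessory and attachment genes of these gels, 10 were tested and 1 of these was downregulated, against 6.62% of all genes. By adjusted p alone 5 of the 10 were lower, against 11.5% of all genes. The median of the 10 was -0.27 on the log2 scale. The downregulated gene was Otos, the gene of otospiralin, a small secreted protein of the inner ear, which fell from 602 to 342 CPM (log2-Fold change -0.82 ± 0.08 SE, Padj 8.45e-05 by edgeR). Zpld1, a zona pellucida domain protein of the cristae, also decreased but within the fold change threshold, from 98.5 to 73.2 CPM (log2-Fold change -0.43, edgeR Padj 0.0175). The same held for Coch, the gene of cochlin (-0.32), and for the collagen genes Col9a2 (-0.36) and Col11a1 (-0.50), with edgeR Padj from 0.0193 to 0.0290. Without IDPN-4wk replicate 3, 2 of the 10 genes were called, while the lower calls over all genes went from 950 to 1095. Col2a1, Col9a1, Col9a3 and Col11a2 had log2-Fold changes from -0.22 to 0.02 and edgeR Padj of at least 0.161. Strc, the gene of stereocilin, by which hair bundles attach to the overlying gel, was at -0.07 (95% interval from -0.62 to 0.48). Pkhd1l1 had from 5 to 12 counts and was not tested.

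Markers of the cells that could contribute this RNA were detected throughout. Of 8 supporting cell markers, 1 was downregulated, against 6.62% of all genes, and 6 had a lower level, against 6780 of the 14352 genes tested. Without Control replicate 1 there were 2 downregulated markers, with 854 of 14555 genes called lower. By adjusted p alone 3 of the 8 were lower, against 11.5% of all genes. Their median was -0.30 on the log2 scale. The one called was Gjb6 (-0.86), the connexin 30 gene, while Sox9 (0.24) and Hes1 (0.36) had positive values that were not past the threshold. The summed level of the 8 genes was from 3790 to 4090 CPM in Control against 2784 to 2919 CPM after IDPN, or 72.8% of Control, and no marker was at 0. Set against that sum within each library, Otog was at 69.5%, Otoa at 70.4%, Otogl at 73.7% and Tectb at 75.1% of the Control ratio, with no overlap between the groups for any of the 4. Tecta was at 120% and Oc90 at 323%, also without overlap, as was Otol1 at 177%, while Sparcl1 at 91.5% and Ceacam16 at 158% overlapped. The sum itself fell without overlap, so a gene with a steady level is higher against it. Tecta in CPM was at 87.5% of Control, with groups that overlapped. No share over all genes was computed for these ratios. The sum depended on Gjb6, which went from 1622 to 891 CPM, to 55.0% of Control. Without Gjb6 the sum was at 85.3% of Control, and against it Otog was at 59.4%, Otoa at 60.1%, Otogl at 63.0%, Tectb at 64.1% and Oc90 at 276%, still without overlap. Otol1 was then at 151% and Sparcl1 at 78.1%, both without overlap, and Tecta at 103% and Ceacam16 at 134% overlapped.

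Of 10 HC markers, 5 were downregulated, against 6.62% of all genes, and 10 had a lower level, against 6780 of the 14352 genes tested. Their log2-Fold changes ranged from -2.56 (Slc17a8) to -0.07 (Gfi1) around a median of -0.58. Their sum was from 3358 to 3468 CPM in Control against 2184 to 2593 CPM after IDPN, with none at 0. Against the HC sum, Otog was at 74.3%, Otoa at 75.2%, Otogl at 78.8% and Tectb at 80.3% of the Control ratio, and Otol1 at 189% and Oc90 at 345%, all without overlap, while Sparcl1 at 97.8%, Tecta at 129% and Ceacam16 at 168% overlapped. The HC sum fell without overlap too, so a gene with a steady level is likewise higher against it. This sum depended on Ush1c, the gene of harmonin, which held 1267 CPM of it in Control and was at 88.2% of Control after IDPN. Without Ush1c the HC sum was at 56.6% of Control, and Otogl (95.5%), Otoa (91.1%) and Tectb (97.2%) overlapped, with Otog at 90.0% still apart. Tecta was then at 156%, Sparcl1 at 118%, Otol1 at 229% and Oc90 at 418%, without overlap, and Ceacam16 at 204% with overlap. Whether Otogl, Otoa and Tectb were apart between the groups against the HC sum thus changed with a single marker. All 4 downregulated gel genes kept a ratio below that of Control. For the smaller lists that follow, the shares over all genes were 6.62% lower and 3.09% higher, and a single called gene says little about a list. The sum of 6 Schwann cell markers was from 7392 to 9564 CPM in Control against 4985 to 7636 CPM after IDPN, with 1 of 6 downregulated (Pmp22, -0.59), and 4 tested endothelium markers had 1 downregulated gene (Flt1, -0.69), with sums from 312 to 435 CPM and from 285 to 336 CPM. The part of these cells in the Sparcl1 result was not tested. Dark cell markers, of cells that border the sensory epithelium and secrete endolymph, had 2 of 6 downregulated (Kcnq1, -1.87, and Slc12a2, -1.06), with sums from 602 to 763 CPM in Control against 314 to 418 CPM after IDPN. Of 6 stroma markers 1 was lower (Lum, -1.42) and 1 higher (Col1a1, 0.74), with sums from 858 to 1039 CPM and from 818 to 923 CPM, and of the 3 melanocyte markers tested, Tyr was at -0.87 (Padj 0.0729 by edgeR), Mlana at -0.51 and Pmel at -0.23, with sums from 502 to 640 CPM and from 437 to 489 CPM. The part of any of these cells in the rise of Oc90 was not tested.

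**Figure D5:**
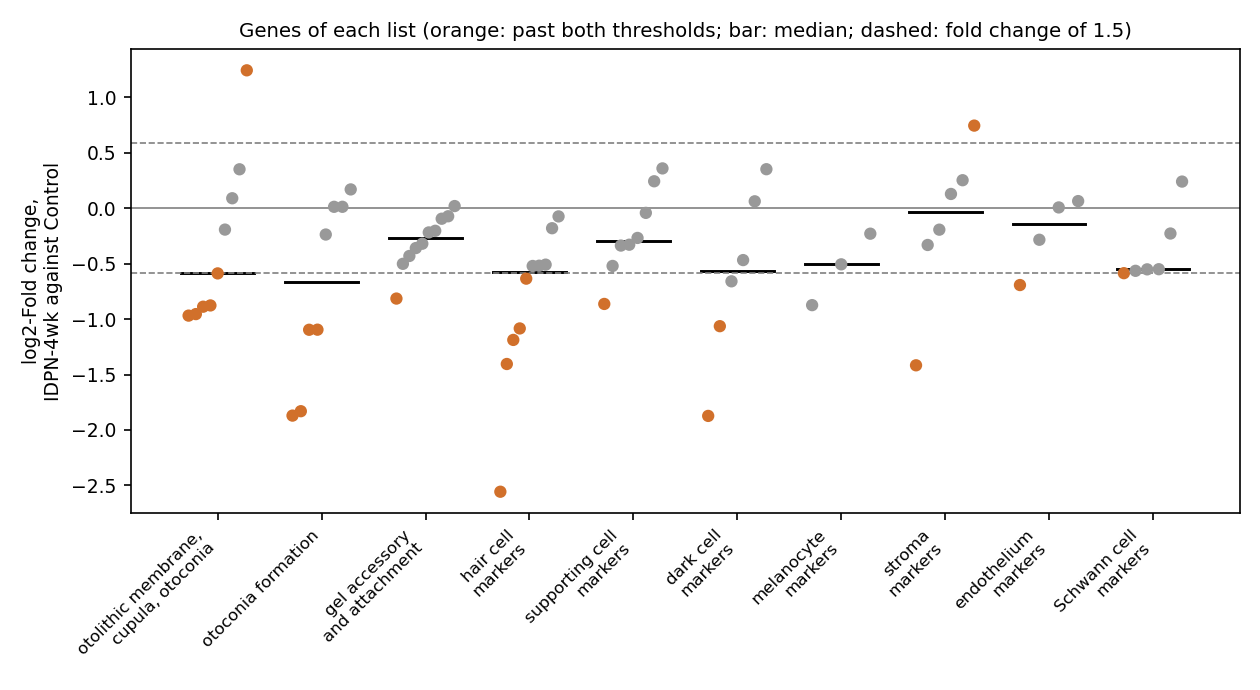
Log2-Fold change of IDPN-4wk against Control (y axis) for every tested gene of each list (x axis), orange where past both thresholds, with a bar at the median of the list and dashed lines at a fold change of 1.5. The medians are -0.59 for the otolithic membrane, cupula and otoconia genes, -0.27 for accessory and attachment genes, -0.58 for HC markers and -0.30 for supporting cell markers.

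The genes whose pattern was most like each of the 9 were ranked by the Pearson correlation of log2 CPM over the 6 libraries. Such values include the difference between the groups, and 655 genes exceeded a correlation of 0.95 with Otog and 669 with Otoa. Closest to Otog were Lpgat1 (0.9995), Loxhd1 (0.9995) and Ptprz1 (0.9987), of which Loxhd1 encodes a protein of HC stereocilia. Closest to Otoa were Ano4 (0.9996), Atp2b2 (0.999) and Otog (0.9981). Closest to Otogl were Pcdh20 (0.9994), Rsph10b (0.9979) and Tasp1 (0.9974). Tectb and Sparcl1 were near each other (0.9975), Tectb being followed by Ggcx and Etfdh (0.997 each) and Sparcl1 being nearest to Slc44a3 (0.9991), with Ces1d at 0.9971. Oc90 was closest to Plau (0.9965), Rars (0.9964) and Smc4 (0.9956). Few genes resembled Tecta and Ceacam16, with 14 and 15 genes over 0.95, against 69 for Otol1. Tecta was closest to Pcdhga8 (0.9908), Abhd1 and Ebp, Ceacam16 to Sbk1 (0.9916), Rab13 and Slc29a4, and Otol1 to Rab19 (0.9956), Lpin3 and Krt13. After the group means were removed, which leaves only the spread between animals, the correlation was 0.98 for Otog with Otoa and for Tectb with Sparcl1, 0.84 for Otog with Otogl, and -0.21 for Otog with Tecta. The other pairs of downregulated genes lay from 0.68 (Otogl with Tectb) to 0.91 (Otogl with Otoa), and Tecta with Otol1 was at 0.78. No share over all pairs of genes was computed.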

How the data were processed

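Vestibular epithelia of 6 rats were profiled by SMART-seq2, which primes on the poly(A) tail and does not keep the strand. The authors mapped reads to Rnor6.0 with STAR (2.5.3a, in the submitters' processing notes) and deposited expected counts per gene from RSEM (1.3.0), here as whole numbers, so that rounding changed 0 values. RSEM shares reads between similar genes, which makes values of close paralogs less certain. Depth was from 13358700 to 18562000 counts per library (6 significant digits), so a count of 0 allows 3 counts, or up to 0.155 to 0.216 CPM after TMM scaling. These floors cover counting error only, whereas the 95% intervals of edgeR also hold the spread between animals.

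Groups were taken from the treatment label. Replicates were numbered in accession order, which pairs nothing, and each is an animal. The labels give all 6 libraries the same batch. Low genes were removed by filterByExpr at a minimum count of 10 and a minimum total of 15. TMM scaling and quasi-likelihood tests were run in edgeR 4.0.16 under R 4.3.3, with Benjamini-Hochberg adjustment over 14352 genes. The standard error was taken from the quasi F statistic. DESeq2 1.42.0, limma 3.58.1 (voom), glmTreat, other scalings, other filters and leaving out each library were alternatives. All values of a pair of genes within a library are ratios of raw counts.

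The genes described and all lists were chosen with earlier results of these data known. Named were the 9 genes, the called genes of the 2 lists of otoconia and gel genes, those a sentence needed, and the 3 genes most correlated with each of the 9 (log2 CPM, prior count 2, clone names and LOC or RGD identifiers left out). Dct and Pecam1 had no row under these symbols. Levels per transcript length were planned and not computed, since no length table was used here.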

Additional observations from a re-analysis of the deposited data

How the results depend on the processing

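Otog, Otoa, Oc90, Tecta and Otol1 kept their direction and their side of the thresholds in every alternative run, namely DESeq2, voom, glmTreat, adjusted p alone, 2 other scalings, 2 other filters and each of 6 fits lacking 1 library. The other 4 genes each changed under some alternative. The log2-Fold change of Sparcl1 was under the fold change threshold at -0.48 with library size alone, at -0.56 with upper quartile scaling, at -0.50 without Control replicate 2 and at -0.54 without IDPN-4wk replicate 2, and it kept its -0.59 with glmTreat (a test against the 1.5-fold threshold) at an adjusted p of 1. Ceacam16 changed sign without Control replicate 1, to -0.24. Otogl (-0.89, adjusted p 0.0603) and Tectb (-0.88, adjusted p 0.0636) also lost their call with glmTreat, which called 3 of the 9 genes (2 lower, 1 higher) in place of 6, 3 HC markers in place of 5 and, over all genes, 354 lower and 99 higher in place of 950 and 444. With adjusted p alone the calls were 8 HC markers, 5 accessory and attachment genes and 3 supporting cell markers, and 2778 genes in all. Library size alone moved the median log2-Fold change of all genes to 0.13 and the share of lower genes among all calls from 68.1% to 50.6%. Relative to that median Otog was at -0.99 with either scaling.

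Leaving out one library each, the log2-Fold change ranged from -1.13 to -0.87 for Otog, -1.08 to -0.86 for Otoa, -1.002 to -0.78 for Otogl, -0.95 to -0.75 for Tectb, -0.65 to -0.50 for Sparcl1, -0.27 to -0.11 for Tecta, 1.13 to 1.33 for Oc90, 0.21 to 0.45 for Otol1 and -0.24 to 0.37 for Ceacam16. The median of the 9 genes ranged from -0.65 to -0.50. Calls ranged from 5 to 6 of the 9 genes, from 4 to 7 HC markers, from 1 to 2 accessory and attachment genes (2 without IDPN-4wk replicate 3) and from 1 to 2 supporting cell markers (2 without Control replicate 1), and stayed at 4 otoconia genes. Over all genes the same fits called from 768 to 1095 genes lower and from 317 to 486 higher, with the most calls without IDPN-4wk replicate 3. In ratios within a library, an alternative added after seeing the data, the log2 difference ranged from 0.57 to 0.78 for Tecta per Tectb and from -0.05 to 0.01 for Otog per Otoa. Leaving out each supporting cell marker in turn from the marker sum was likewise added after seeing the data. Only the sum lacking Gjb6 moved ratios by more than the spread between libraries, for 8 of the 9 genes (Ceacam16 excepted), with log2 differences of -0.75 for Otog and 0.04 for Tecta in place of -0.52 and 0.27. For the HC marker sum, leaving out Ush1c moved 8 of the 9 genes (to -0.15 for Otog and -0.04 for Tectb) and leaving out Otof moved 5 (to -0.60 for Otog), against -0.43 for Otog and -0.32 for Tectb with all markers. The cause of these changes was not tested. No paired analysis was possible because the labels give no replicate numbers. Ceacam16, Otol1 and Oc90 rest on 27 to 196 counts per library, so counting error is larger for them than for the other 6 genes.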
